A study of Mus musculus with 8 samples.

Results

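The 4 injected kidneys were set against 2 uninjected ones, all taken after the same ischaemic injury, to ask what carrying any small RNA into the animal did to the injured kidney's messenger RNA. The rule pooled mimic kidneys 6 and 7 with control-miRNA kidneys 1 and 5 and compared them with IRI kidneys 30 and 34. These are 6 of the 8 samples of the series, and the other 2 are sham kidneys 1 and 4. Each sample was 1 mouse kidney on a 1-colour Agilent array.

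Mice of the mimic group received miRNA-5100 mimic bound to polyethyleneimine nanoparticles (PEI-NPs, a positively charged polymer that binds negatively charged RNA). Mice of the control-miRNA group received a control miRNA on the same carrier. Both groups were injected through the tail vein 2 days before surgery, with 5 nmol of RNA in 200 µl at an N/P ratio of 6. The injected groups and the IRI group then all lost the right kidney and had the left kidney clamped for 45 min and reperfused. The IRI group had no injection recorded in the labels, so carrier, RNA and the act of injection cannot be told apart here. Sham mice had only an abdominal midline incision, without nephrectomy or clamping. Every left kidney was taken 24 h after the operation, and 50 ng of total RNA from 30 mg of tissue was labelled. The sources used here give no strain, sex or age.

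Ischaemia-reperfusion kills or strips proximal tubule cells, which lose their transporters and switch on injury genes, while cytokines draw in neutrophils and monocytes. Fibroblasts and pericytes of the interstitium answer later by laying down collagen and other matrix. Foreign RNA on a polycation can be taken up by phagocytes and endothelium and can be sensed by Toll-like receptors, which drive interferon and NF-kB genes.

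The injected small RNAs are shown because they are what the injected groups did not share. Each is written from its 5′ end, with the seed, bases 2 to 8, in capitals. The mimic has the 21 bases of mature mmu-miR-5100 in RefSeq, encoded at chr11:60728698-60728718 on the plus strand of GRCm38.p6. The control miRNA is as the submitters' design text gives it.
mmu-miR-5100: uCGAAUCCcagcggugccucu
control miRNA: gGUUCGUAcguacacuguuca
The seeds differ, and of 1738 mature mouse miRNAs in RefSeq's table only miR-5100 itself carries its seed, and 0 carry that of the control miRNA.

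All levels below are log2 signals relative to the array's own 75th percentile, so 0 is the level of a fairly bright probe and a step of 1 is a doubling. They compare 1 probe across samples, not different genes. After leaving out probes that no label group had well above background on both its arrays, 21264 genes were tested. With limma and Benjamini-Hochberg adjustment, 0 genes were called higher and 0 lower at an adjusted p of 0.05 (0%), and the smallest adjusted p was 0.202. At an unadjusted p of 0.05, 1040 genes lay higher (4.89%) and 400 lower (1.88%). All 4 injected arrays lay above both IRI arrays for 9.72% of genes and below both for 8.15%. The median difference over all genes was 0.05. The p-values measure the spread between these animals only, and pooling counts any difference between the 2 small RNAs as spread.

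The arrays differed before any gene was considered. Mimic arrays had processed signals of 308 and 242 at their 75th percentile, control-miRNA arrays 500 and 416, and IRI arrays 468 and 600. On the log2 scale injected arrays were dimmer, at 8.46 ± 0.46 against 9.05 ± 0.25 (SD, n = 4 and 2), a difference of -0.59 (exact two-sided permutation p = 0.267, where 15 splits allow no p below 0.133). All injected arrays sat on row 2 of the slide and all IRI and sham arrays on row 1, so injection and slide row cannot be told apart. The SD over genes of the log2 difference within a pair of arrays was 0.669 for mimic, 0.515 for control miRNA, 0.39 for IRI and 0.327 for sham. The injected pairs thus differed most, and the parts of animals and of array noise in this were not tested.

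Of 48 gene lists, the fibroblast and matrix list, of interstitial fibroblasts and the matrix they secrete, had the largest share of genes above IRI. The lists and their members were chosen with earlier results of these data known, so this rank and its shares are not a test. Of 30 genes listed 29 were tested, Lum not passing the filter. All 29 had a positive difference, against 26 with array brightness as a covariate and 28 with median centring of the arrays. In 21 of the 29 the 4 injected arrays lay above both IRI arrays (72.4%, against 9.72% of all genes), and in 0 below both. An unadjusted p under 0.05 was found for 20, all higher, against 4.89% of all genes. Among the 25 whose probe was well above background on all 8 arrays, 19 lay above and 0 below. The median difference was 1.20, against 0.05 over all genes. For each small RNA set against the same 2 IRI arrays it was 1.48 for the mimic and 0.84 for the control miRNA. In bulk tissue, more fibroblasts and more RNA per fibroblast cannot be told apart.

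Smoc2, a secreted calcium-binding matricellular protein of the SPARC family, headed all named genes by p. Its probe lies at chr17:14541664-14541723 (mm9). Smoc2 measured 0.40 and 0.62 in mimic kidneys, 0.34 and 0.93 in control-miRNA kidneys, -1.52 and -1.25 in IRI kidneys and 0.32 and 0.38 in sham kidneys. Every injected kidney was above both IRI kidneys and close to sham. The mean was 0.57 ± 0.27 in injected kidneys (SD, n = 4) and -1.38 ± 0.19 in IRI kidneys (SD, n = 2). The difference was 1.95 ± 0.21 (SE), a 3.88-fold higher signal, with a limma adjusted p of 0.202 that ranged from 0.0165 (array weights) to 0.996 (without IRI kidney 34) over 20 other settings, while the difference ranged from 1.64 to 2.13. Mimic and control-miRNA kidneys differed by -0.12 ± 0.23 for Smoc2 (SE, limma adjusted p = 0.733).

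Postn encodes periostin, a matrix protein that activated fibroblasts secrete. It measured -2.13 and -2.76 in mimic kidneys, -2.52 and -2.53 in control-miRNA kidneys, -4.10 and -3.94 in IRI kidneys and -4.66 and -4.62 in sham kidneys. Here the injected kidneys lay above both other groups, by 1.54 ± 0.20 over IRI (SE, limma adjusted p = 0.291). Mfap5, a microfibril protein, was not well above background on either IRI array and was so on all 4 injected arrays, which puts the injected level at least 3.20-fold higher (limma adjusted p = 0.544). It was well above background on 1 of 2 sham arrays, so it passed the filter only through the injected groups, where it was high. Mfap5 was chosen after its values were seen, as were Col1a1 and Col3a1.

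The collagen chains of the list numbered 10 and are part of the 29 genes already counted. In 9 of them every injected array lay above both IRI arrays, against 9.72% of all genes. The differences were 0.41 to 1.76 over the 10. Col1a2, a chain of fibrillar collagen I (probe at chr6:4490619-4490678, mm9), measured 4.54 and 4.80 in mimic kidneys, 4.05 and 3.60 in control-miRNA kidneys, 2.95 and 2.45 in IRI kidneys and 2.84 and 2.93 in sham kidneys. The IRI and sham levels overlapped and the injected ones stood above both. The difference was 1.55 ± 0.34 (SE, limma adjusted p = 0.603), and 1.00 ± 0.28 with array brightness in the fit. Col1a1, the partner chain, measured 3.25 and 4.11 in mimic kidneys, 2.91 and 2.65 in control-miRNA kidneys, 1.94 and 1.02 in IRI kidneys and 0.24 and 0.31 in sham kidneys. Its difference was 1.76 ± 0.42 (SE, limma adjusted p = 0.603). Col3a1, fibrillar collagen III, had a difference of 1.55 ± 0.41 and Col6a1, of beaded-filament collagen VI, 1.57 ± 0.25 (SE, limma adjusted p = 0.607 and 0.362). With array brightness in the fit the differences were 1.00 for Col1a1, 0.88 for Col3a1 and 1.26 for Col6a1.

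Receptors that mark the cells themselves also lay above IRI on every injected array. Pdgfra, the platelet-derived growth factor receptor of interstitial fibroblasts, measured -0.04 and -0.02 in mimic kidneys, -0.18 and -0.47 in control-miRNA kidneys, -1.24 and -1.53 in IRI kidneys and -0.54 and -0.42 in sham kidneys. Pdgfrb, shared by fibroblasts and pericytes, measured 2.10 and 2.12 in mimic kidneys, 1.22 and 1.24 in control-miRNA kidneys, 0.69 and 0.26 in IRI kidneys and 0.69 and 0.83 in sham kidneys. Both genes differed by 1.20 (SE 0.19 for Pdgfra and 0.33 for Pdgfrb, limma adjusted p = 0.370 and 0.607). With array brightness in the fit the differences were 1.03 for Pdgfra and 0.62 for Pdgfrb. For Pdgfrb the mimic kidneys lay above the control-miRNA kidneys, by 0.88 ± 0.19 (SE, limma adjusted p = 0.0662).

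**Figure D1:**
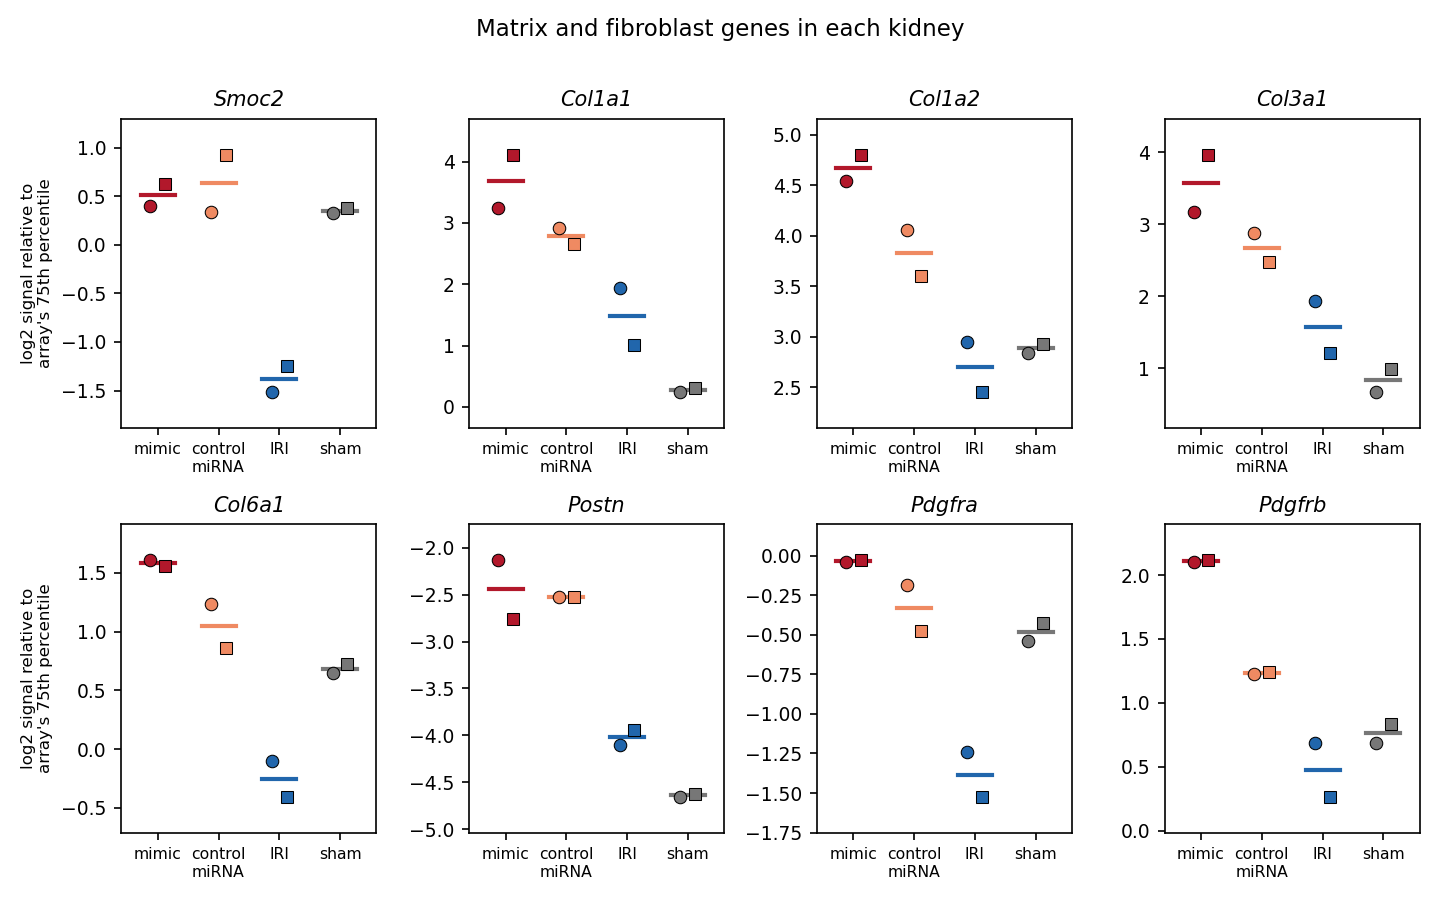
Log2 signal relative to the array's 75th percentile (vertical axis) for 8 matrix and fibroblast genes in mimic, control-miRNA, IRI and sham kidneys (horizontal axis). Points are single kidneys (circle, lower animal number; square, higher) and bars are means of 2; in all 8 panels the 4 injected kidneys lie above both IRI kidneys.

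The mean level of the 29 genes ran from -0.54 to 0.23 on the injected arrays, from -1.27 to -1.20 on the IRI arrays and from -0.80 to -0.76 on the sham arrays. Array brightness moved with this result: with it as a covariate the list's median was 0.80, and the part of brightness beyond that fit was not tested. Lists of other cells are given beside it. Of 21 endothelial genes 5 had injected arrays above both IRI arrays and 0 below (23.8%, against 9.72%), with a median of 0.43, or 0.00 with array brightness in the fit, and mean levels of -0.09 to 0.94 on injected arrays, -0.20 to -0.04 on IRI arrays and 0.40 to 0.52 on sham arrays. Of 14 mural and myofibroblast genes 2 lay above and 1 below (14.3% and 7.14%, near the 9.72% and 8.15% of all genes), with a median of 0.46. Adrenal cortex markers, a tissue that can be dissected with a kidney, had 4 of 8 genes tested and 1 above. Skeletal muscle had 6 of 10 tested and 1 above, and adipose tissue 5 of 10 tested and 1 above. In lists this small, 1 gene is too few to set against 9.72%. The part of any of these in the matrix result was not tested.

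Postn's promoter is shown because it belongs to the group that lay high together. RefSeq (GRCm38.p6) gives Postn 2 promoter windows, each 250 bases before to 50 after a start, and the one at chr3:54360857-54361156 (plus strand) holds the letters TATAAA, in capitals here.
Postn promoter: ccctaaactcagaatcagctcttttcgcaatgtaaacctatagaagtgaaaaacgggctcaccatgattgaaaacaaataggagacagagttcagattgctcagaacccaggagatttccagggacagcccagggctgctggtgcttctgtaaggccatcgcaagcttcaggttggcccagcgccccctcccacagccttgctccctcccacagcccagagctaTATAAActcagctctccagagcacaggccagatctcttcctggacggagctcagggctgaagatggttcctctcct
On either strand TATAAA occurred in 4 of the 16 matrix list genes with a window in the table (25%) and in 10.7% of the 12829 tested genes with one. TGANTCA, the AP-1 type motif, occurred in 2 of the 16 (12.5%) against 6.86%. The other 2 motifs counted were less common in the list: CCAAT in 4 of the 16 (25%) against 42.2%, and CACGTG in 1 (6.25%) against 10.9%. All 4 are matches of letters and show no binding.

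Among the named genes of the smallest p, most others that lay higher are not matrix genes. Tmem119, a membrane protein of bone-forming cells and microglia, measured 0.27 and -0.23 in mimic kidneys, 0.37 and 0.32 in control-miRNA kidneys, -1.26 and -1.55 in IRI kidneys and -1.16 and -0.92 in sham kidneys. Frzb, a secreted antagonist of Wnt ligands, measured 0.21 and 0.44 in mimic kidneys, 0.22 and -0.04 in control-miRNA kidneys, -1.03 and -1.09 in IRI kidneys and 0.45 and 0.46 in sham kidneys. So Tmem119 stood above both IRI and sham, while Frzb in injected kidneys was nearest to sham. Their differences over IRI were 1.59 ± 0.22 and 1.27 ± 0.18 (SE, limma adjusted p = 0.325 for both). Hoxa11, a homeobox factor of kidney development, differed by 1.03 ± 0.16 and Slco2b1, an organic anion transporter, by 1.27 ± 0.19 (SE, limma adjusted p = 0.357 for both). A second, dimmer probe of Slco2b1 differed by -0.08, so the probes disagree.

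A further 4 genes of that set were not well above background on either IRI array. A bound on the fold holds only where all 4 injected arrays were well above background. Agap2, a GTPase-activating protein for Arf proteins, was well above background on all 4 injected arrays and at least 5.64-fold higher in injected kidneys (limma adjusted p = 0.357). Abca8a, a lipid transporter of the ABC family, and Zfyve28, a FYVE-domain protein, were each well above background on only 2 of the 4 injected arrays. No fold or bound is given for them (limma adjusted p = 0.241 for both). Zfyve28 measured -4.27 and -4.23 in mimic kidneys, under the lowest signals well above background on those arrays, -4.22 and -3.92. On the IRI arrays these lowest signals were lower, at -4.84 and -5.20, so dim probes are not compared evenly. Kcnt1, a sodium-activated potassium channel, was well above background on 3 of the 4 injected arrays, so no bound is given for it either (limma adjusted p = 0.357). Kcnt1 was brightest in sham, at -0.94 and -0.96, against -5.10 and -3.25 in mimic kidneys and -4.51 and -3.85 in control-miRNA kidneys.

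On the lower side the same rule named 10 genes. Mab21l3, a gene of the Mab-21 family, measured -0.52 and -0.90 in mimic kidneys, -0.51 and -0.29 in control-miRNA kidneys, 0.60 and 0.78 in IRI kidneys and -1.93 and -1.73 in sham kidneys. Il1f6, the gene of the epithelial alarm cytokine interleukin-36 alpha (probe at chr2:24081127-24081186, mm9), measured -1.21 and -1.11 in mimic kidneys and -1.07 and 0.32 in control-miRNA kidneys. In IRI kidneys Il1f6 measured 1.40 and 1.91, and it was not well above background in sham. All 4 injected kidneys lay below both IRI kidneys for both genes. The differences were -1.25 ± 0.21 for Mab21l3 and -2.42 ± 0.44 for Il1f6 (SE, limma adjusted p = 0.413 and 0.544).

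Cldn14, a claudin of the tight junction that limits calcium passage, had a difference of -1.27 ± 0.24, and Rprm, a p53-induced inhibitor of the cell cycle, one of -0.94 ± 0.17 (SE, limma adjusted p = 0.583 and 0.544). Pcdh8, a protocadherin, differed by -2.05 ± 0.44, Nefm, the medium neurofilament chain, by -1.05 ± 0.22 and Adgrf1, an adhesion receptor, by -1.22 ± 0.27 (SE, limma adjusted p = 0.603 for all 3). Tmem145, a transmembrane protein, differed by -1.39 ± 0.29 (SE, limma adjusted p = 0.603). Lrrc3 was not well above background on any injected array and was so on 1 of 2 IRI arrays, so no fold is given. The last of the 10, Nr1d1, is described with the clock genes.

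Among macrophage and monocyte genes, 18 of 19 were tested. In 6 of them the injected arrays lay above both IRI arrays (33.3%, against 9.72%) and in 1 below both, with a median of 0.62. That median was 0.27 with array brightness in the fit and 0.33 with array weights. Adgre1, which encodes the macrophage surface protein F4/80, measured -1.35 and -1.19 in mimic kidneys, -1.66 and -1.47 in control-miRNA kidneys, -2.34 and -2.01 in IRI kidneys and -0.75 and -1.34 in sham kidneys. Trem2, a lipid receptor of macrophages, measured -0.96 and -0.94 in mimic kidneys, -1.24 and -2.04 in control-miRNA kidneys, -2.16 and -2.97 in IRI kidneys and -3.97 and -3.83 in sham kidneys. Both lay above IRI on every injected array, yet sham was the highest group for Adgre1 by its mean and the lowest for Trem2. The differences were 0.76 ± 0.23 for Adgre1, 1.27 ± 0.36 for Trem2, 0.77 ± 0.22 for C1qc (a chain of complement C1q) and 0.65 ± 0.25 for Csf1r, the receptor for macrophage growth factor (SE, limma adjusted p = 0.607 for all 4). With array brightness in the fit they were 0.53, 0.84, 0.47 and 0.22.

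Itgam, the integrin chain CD11b of neutrophils and monocytes (probe at chr7:135261755-135261814, mm9), did not separate the groups. It measured 4.38 and 5.77 in mimic kidneys, 2.73 and 3.38 in control-miRNA kidneys, 2.77 and 2.32 in IRI kidneys and 4.87 and 4.31 in sham kidneys. Control-miRNA kidney 1 lay between the IRI kidneys, and the mimic kidneys were near sham. The difference was 1.52 ± 0.74 (SE, limma adjusted p = 0.607) and -0.05 ± 0.24 with array brightness in the fit. Neutrophil genes had 2 of 12 above both IRI arrays (16.7%, against 9.72%) and 0 below.

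Cd14, the lipopolysaccharide co-receptor, was the macrophage list gene that lay lower. It measured 2.14 and 2.04 in mimic kidneys, 1.99 and 2.66 in control-miRNA kidneys, 3.11 and 3.26 in IRI kidneys and -0.89 and -1.16 in sham kidneys, a difference of -0.98 ± 0.23 (SE, limma adjusted p = 0.603). Of 26 cytokine and NF-kB genes tested, 0 had injected arrays above both IRI arrays and 6 had them below (23.1%, against 8.15%), with a median of -0.29. Under normexp background correction that median was -0.05.

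Il1rn, which encodes the interleukin-1 receptor antagonist, measured -2.44 and -2.13 in mimic kidneys, -1.89 and -2.91 in control-miRNA kidneys and -1.44 and -0.85 in IRI kidneys. Socs3, the feedback inhibitor of gp130 signalling, measured 2.27 and 1.63 in mimic kidneys, 1.91 and 2.28 in control-miRNA kidneys, 2.69 and 3.33 in IRI kidneys and -1.67 and -1.31 in sham kidneys. Every injected kidney thus lay below both IRI kidneys and, for Socs3, far above sham. The differences were -1.20 ± 0.32 for Il1rn, -0.99 ± 0.27 for Socs3, -2.37 ± 0.78 for the chemokine Ccl20 and -0.68 ± 0.25 for Nfkbiz, an inducible nuclear co-factor of NF-kB (SE, limma adjusted p = 0.607 for all 4). Il6 overlapped, at -1.84 and -3.91 in mimic kidneys and -3.65 and -5.10 in control-miRNA kidneys against -3.75 and -3.03 in IRI kidneys.

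Of 22 complement and acute phase genes tested, 6 had injected arrays above both IRI arrays (27.3%, against 9.72%) and 3 below (13.6%, against 8.15%), with a median of -0.05. Among those above was Serping1, the inhibitor of complement C1, at 0.80 ± 0.21 (SE, limma adjusted p = 0.607). Below were the 3 fibrinogen chains, clotting proteins that injured tubule cells also make. Fgb measured 2.40 and 1.68 in mimic kidneys, 2.83 and 4.87 in control-miRNA kidneys, 5.39 and 5.31 in IRI kidneys and -2.18 and -1.52 in sham kidneys. Control-miRNA kidney 5 was close to IRI and the other injected kidneys were well under it. The differences were -2.40 ± 0.77 for Fgb, -2.21 ± 0.78 for Fga and -2.16 ± 0.77 for Fgg, the last chosen after its values were seen (SE, limma adjusted p = 0.607 for all 3). With array brightness in the fit they were -1.39, -1.18 and -0.97.

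**Figure D2:**
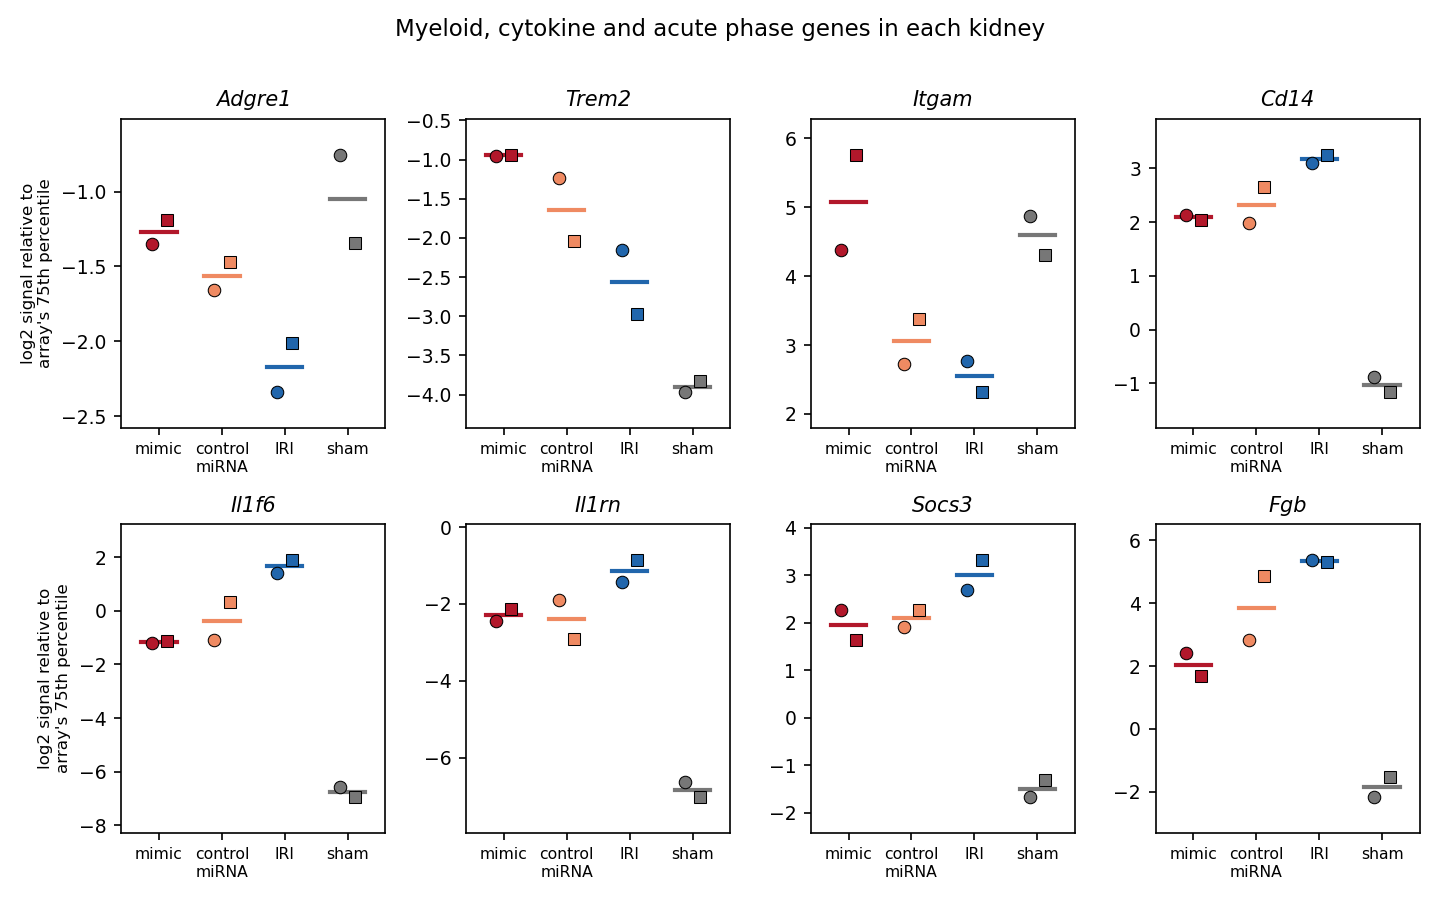
Log2 signal relative to the array's 75th percentile (vertical axis) for 8 myeloid, cytokine and acute phase genes in mimic, control-miRNA, IRI and sham kidneys (horizontal axis); points are single kidneys (circle, lower animal number; square, higher) and bars are means of 2. Adgre1 and Trem2 lie above both IRI kidneys in all 4 injected kidneys, Itgam overlaps, and the other 5 genes lie below.

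Of 30 interferon response genes, which foreign RNA can switch on, 1 had injected arrays above both IRI arrays (3.33%, against 9.72%) and 0 below. The difference was positive for 24 of the 30, with a median of 0.21, and of 0.62 for the mimic and -0.19 for the control miRNA against the same IRI arrays. With array brightness in the fit the pooled median was -0.24. The 1 gene above was Irf7, the transcription factor that amplifies type I interferon, at 3.02 and 3.34 in mimic kidneys, 2.97 and 3.30 in control-miRNA kidneys, 2.24 and 2.22 in IRI kidneys and 1.96 and 1.76 in sham kidneys. All 4 injected kidneys were above all other kidneys, by 0.93 ± 0.18 over IRI (SE, limma adjusted p = 0.588). Isg15, a ubiquitin-like interferon target, measured 2.28 and 2.10 in mimic kidneys, 0.65 and 0.91 in control-miRNA kidneys and 1.01 and 1.42 in IRI kidneys. Among injured kidneys Isg15 lay highest with the mimic and lowest with the control miRNA, which differed by 1.41 ± 0.24 (SE, limma adjusted p = 0.0662). Of 17 sensors of foreign nucleic acid 0 lay above and 4 below (23.5%, against 8.15%), among them Sting1, the adaptor for cytosolic DNA, at -0.44 ± 0.19 (SE, limma adjusted p = 0.607).

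Of 25 TGF-beta and BMP genes 2 had injected arrays above both IRI arrays (8%, against 9.72%) and 7 below (28%, against 8.15%). Their median was -0.02, or 0.06 with array brightness in the fit. The list mixes ligands and target genes, and the activity of the pathway was not tested. Id1 and Id3, inhibitors of basic helix-loop-helix factors and targets of BMP signals, differed by -0.58 ± 0.18 and -0.89 ± 0.36, and Ccn1, a matricellular early gene, by -0.97 ± 0.42 (SE, limma adjusted p = 0.607 for all 3). Immediate early genes had 2 of 27 above (7.41%, against 9.72%) and 6 below (22.2%, against 8.15%). Fos measured 0.07 and -0.52 in mimic kidneys, 0.38 and -0.12 in control-miRNA kidneys and 0.45 and 0.51 in IRI kidneys, and Junb differed by -0.71 ± 0.25 (SE, limma adjusted p = 0.607 for both). Both encode subunits of the AP-1 factor.

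**Figure D3:**
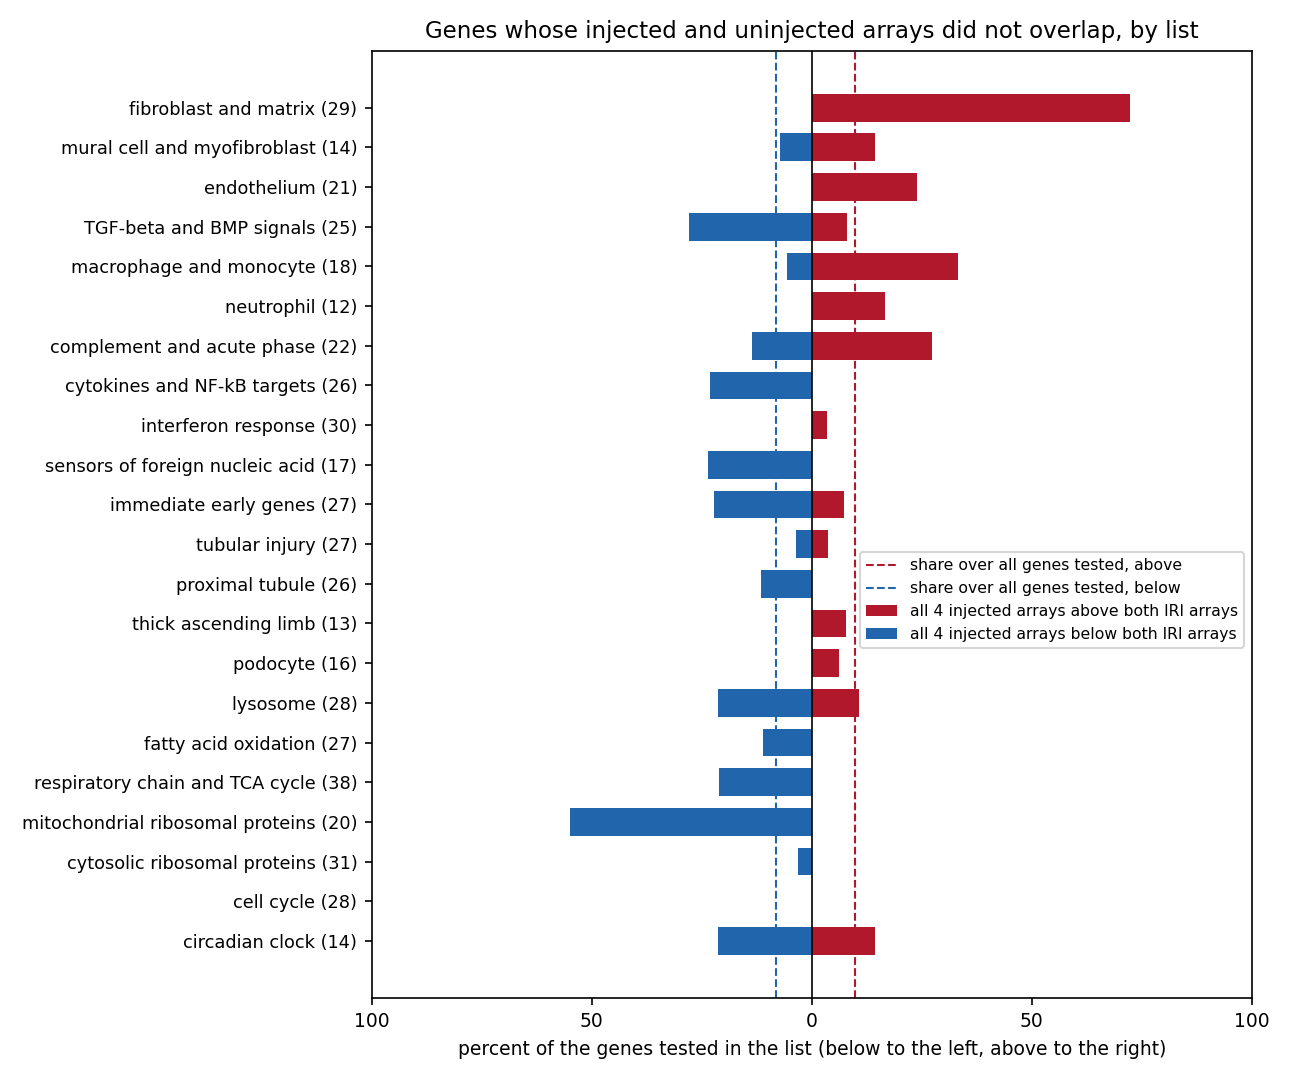
Percent of each list's tested genes (number in brackets) whose 4 injected arrays all lay above both IRI arrays (red, to the right) or below both (blue, to the left); dashed lines mark the shares over all genes tested, 9.72% above and 8.15% below. The fibroblast and matrix list reaches 72.4% above and the mitochondrial ribosomal protein list 55% below.

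Of 20 mitochondrial ribosomal protein genes, 11 had injected arrays below both IRI arrays (55%, against 8.15%) and 0 above. Their shift was small, with a median of -0.33, and was -0.50 for the mimic and -0.13 for the control miRNA against the same IRI arrays. Mrpl19, a protein of the large subunit, measured 0.06 and 0.00 in mimic kidneys, 0.18 and 0.28 in control-miRNA kidneys and 0.49 and 0.59 in IRI kidneys. Mrps35, of the small subunit, measured 1.76 and 1.22 in mimic kidneys, 2.00 and 2.11 in control-miRNA kidneys and 2.32 and 2.27 in IRI kidneys. Neither overlapped IRI, with differences of -0.41 ± 0.16 and -0.52 ± 0.26 (SE, limma adjusted p = 0.607 for both). With array brightness in the fit the list's median was -0.10. Respiratory chain and TCA cycle genes had 8 of 38 below (21.1%, against 8.15%) and 0 above. That count depended on the scaling: it was 3 of 38 with quantile normalization, where 9.01% of all genes lay below. It ran from 3 to 12 over the settings other than leaving out an array. Cytosolic ribosomal protein genes had 1 of 31 below (3.23%) and 0 above. Fatty acid oxidation genes had 3 of 27 below (11.1%, near 8.15%) and 0 above, with a median of -0.72 for the mimic and 0.02 for the control miRNA. Fabp1, a fatty acid binding protein of that list, differed by -0.82 ± 0.32 (SE, limma adjusted p = 0.607).

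Clock genes, whose products feed back on each other over the day, had 14 of 16 tested, 2 with injected arrays above both IRI arrays and 3 below (14.3% and 21.4%, against 9.72% and 8.15%). Nr1d1, the repressor REV-ERB alpha, measured -2.30 and -2.36 in mimic kidneys, -3.32 and -1.55 in control-miRNA kidneys, -0.53 and -0.54 in IRI kidneys and 0.31 and -0.05 in sham kidneys. Dbp, an activator of the D-box output genes, measured 1.27 and 3.05 in mimic kidneys, 2.96 and 4.21 in control-miRNA kidneys, 4.49 and 4.83 in IRI kidneys and 5.30 and 6.14 in sham kidneys. Both were lowest in injected kidneys and highest in sham. Cry1, a cryptochrome repressor, ran the other way, at -1.89 and -2.37 in mimic kidneys, -2.26 and -2.23 in control-miRNA kidneys, -3.33 and -3.84 in IRI kidneys and -4.32 and -3.47 in sham kidneys.

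The clock differences were -1.85 ± 0.42 for Nr1d1, -1.79 ± 0.70 for Dbp and -0.73 ± 0.24 for Bhlhe40, a further clock repressor, and 1.40 ± 0.28 for Cry1 and 0.79 ± 0.37 for Per1, a period repressor (SE, limma adjusted p = 0.603, 0.607, 0.607, 0.594 and 0.607). Per1 and Arntl, the gene of the activator BMAL1, were chosen after their values were seen. Arntl did not separate the groups, at -0.77 and -1.25 in mimic kidneys, -3.59 and -4.02 in control-miRNA kidneys and -2.76 and -4.24 in IRI kidneys. No source used here gives the hour of day at which each kidney was taken, and its part was not tested. Cry1's promoter is shown since it holds CACGTG, the E-box through which the clock activators act, in capitals. It is at chr10:85185005-85185304, minus strand of GRCm38.p6, 250 bases before to 50 after the start.
Cry1 promoter: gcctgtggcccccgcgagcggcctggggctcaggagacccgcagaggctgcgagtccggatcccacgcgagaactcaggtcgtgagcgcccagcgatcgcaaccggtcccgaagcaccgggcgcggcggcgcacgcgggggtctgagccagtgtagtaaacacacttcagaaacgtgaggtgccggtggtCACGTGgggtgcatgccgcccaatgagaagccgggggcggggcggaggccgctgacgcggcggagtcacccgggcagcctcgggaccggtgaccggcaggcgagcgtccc
CACGTG, which reads the same on both strands, occurred in 4 of the 12 clock list genes with a window (33.3%) and in 10.9% of the tested genes with one. Among the other motifs counted, CCAAT occurred in 10 of the 12 (83.3%, against 42.2%), and TATAAA and TGANTCA in 0 (against 10.7% and 6.86%). CACGTG was not in the Nr1d1 or Dbp window, which says only that these letters are not there.

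**Figure D4:**
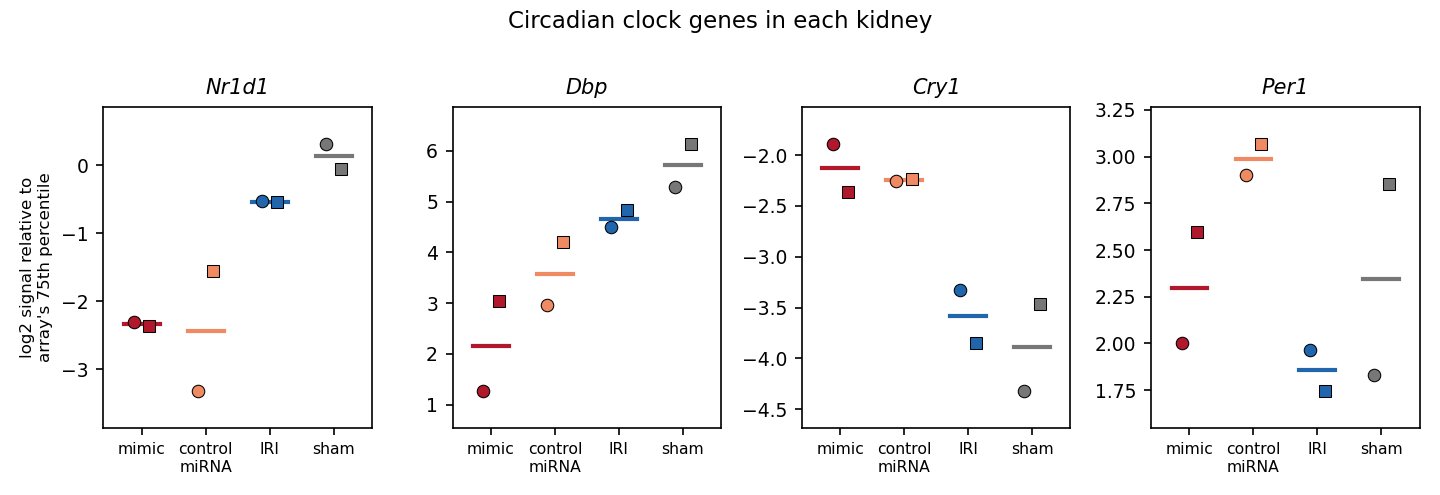
Log2 signal relative to the array's 75th percentile (vertical axis) for 4 clock genes in mimic, control-miRNA, IRI and sham kidneys (horizontal axis); points are single kidneys (circle, lower animal number; square, higher) and bars are means of 2. Nr1d1 and Dbp lie below both IRI kidneys in all 4 injected kidneys, and Cry1 and Per1 above.

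Tubular injury genes did not separate the injected from the uninjected injured kidneys. Of 27 tested 1 had injected arrays above both IRI arrays and 1 below (3.7% each, against 9.72% and 8.15%), with a median of -0.10. Havcr1, which encodes the injury molecule KIM-1, measured 3.82 and 2.97 in mimic kidneys, 4.44 and 4.25 in control-miRNA kidneys and 4.36 and 4.56 in IRI kidneys, and was not well above background in sham. Lcn2, the iron-carrier trap NGAL, measured 7.49 and 5.85 in mimic kidneys, 7.77 and 7.13 in control-miRNA kidneys, 7.45 and 7.28 in IRI kidneys and -0.22 and -0.57 in sham kidneys. Mimic kidney 7 was the lowest injured kidney for both. The differences were -0.60 ± 0.40 for Havcr1, -0.30 ± 0.49 for Lcn2, -0.36 ± 0.50 for the keratin Krt20 and 0.05 ± 0.18 for the matrix phosphoprotein Spp1 (SE, limma adjusted p = 0.607, 0.782, 0.745 and 0.893). With array brightness in the fit these signs turned, to 0.19, 0.40, 0.51 and -0.03.

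Tubule markers lay lower in injured than in sham kidneys by their list means. Proximal tubule genes averaged 4.27 to 4.82 on injected arrays, 4.53 to 4.80 on IRI arrays and 6.33 to 6.34 on sham arrays. Thick ascending limb genes averaged 0.87 to 1.88, 0.65 to 1.16 and 2.50 to 2.67 in the same order. Of 26 proximal tubule genes 0 had injected arrays above both IRI arrays and 3 below (11.5%, near 8.15%). Slc34a1, the proximal sodium-phosphate cotransporter, measured 5.00 and 5.78 in mimic kidneys, 5.42 and 5.16 in control-miRNA kidneys, 4.87 and 5.36 in IRI kidneys and 7.71 and 7.85 in sham kidneys. Lrp2, the endocytic receptor megalin, differed by -0.16 ± 0.19 (SE, limma adjusted p = 0.695). For both genes a dimmer probe gave the opposite sign. Slc12a1, the sodium-potassium-chloride cotransporter of the thick ascending limb, was the 1 gene of 13 in its list with all injected arrays above both IRI arrays, at 1.26 and 3.19 in mimic kidneys and 1.69 and 2.28 in control-miRNA kidneys, against 0.56 and 1.03 in IRI kidneys and 3.73 and 4.15 in sham kidneys. Its difference was 1.31 ± 0.49 (SE, limma adjusted p = 0.607).

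Endothelial genes lay further from IRI with the mimic than with the control miRNA. All 21 endothelial genes had a positive pooled difference, with a median of 0.86 for the mimic and 0.07 for the control miRNA against the same IRI arrays, and of 0.00 for the pool with array brightness in the fit. Flt1, a vascular growth factor receptor, differed by 0.85 ± 0.29, Robo4, a guidance receptor of endothelium, by 0.85 ± 0.34, and Erg, an endothelial transcription factor, by 0.84 ± 0.27 (SE, limma adjusted p = 0.607 for all 3). Cdh5, the junction protein VE-cadherin, measured 0.17 and 0.70 in mimic kidneys, -1.06 and -0.62 in control-miRNA kidneys and -0.58 and -0.68 in IRI kidneys, so the groups overlapped. Mimic and control-miRNA kidneys differed by 1.27 ± 0.25 for Cdh5 (SE, limma adjusted p = 0.0662). Pecam1, a further junction protein, differed by 0.22 ± 0.27 (SE, limma adjusted p = 0.710). Among lysosome genes 3 of 28 lay above (10.7%, near 9.72%) and 6 below (21.4%, against 8.15%), 19 had a negative difference and the median was -0.23, or 0.12 with array brightness in the fit. The lysosome gene of smallest p, Ctss, the phagocyte protease cathepsin S, went against that median at 0.75 ± 0.21 (SE, limma adjusted p = 0.607). Abcc9, a channel subunit of pericytes, had the largest difference of the 14 mural genes, of which 4 had a negative one. It differed by 1.28 ± 0.45 (SE, limma adjusted p = 0.607), or 0.61 with array brightness in the fit. Abcc9 was brightest in sham kidneys, at 0.33 and 0.39.

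The small RNAs taken one at a time gave unequal counts. Set against the 2 IRI arrays, the mimic kidneys had 3409 genes called by limma at an adjusted p of 0.05 (16%) and the control-miRNA kidneys 0 (0%), and the 2 comparisons share those IRI arrays. Set against each other, mimic and control-miRNA kidneys had 0 genes called (0%). The mimic count was 0 with array brightness in the fit, 7545 without mimic kidney 6 and 0 when any 1 of the other arrays was left out.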

How the data were processed

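Messenger RNA of 8 mouse kidneys was measured on 1-colour (Cy3) Agilent arrays, all on 1 slide with 1 scan time. The deposited scanner files give intensity per spot from Agilent Feature Extraction 12.0.3.1, per the file headers: a processed signal with background subtracted on each array and no scaling across arrays. The deposited series table holds linear ratios; from their values, 97.4% of probes had a median ratio within 0.02 of 1, so each probe was divided by about its median over the 8 arrays. Array medians of those ratios ran from 0.992 to 1.017. No source used here states how they were scaled between arrays. Their results lay very near those of quantile normalization, with a matrix list median of 1.02 in both. These 2 settings are therefore not separate checks.

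Log2 processed signals were taken relative to each array's 75th percentile over non-control spots, spots of a probe were averaged, and control spots and outlier flags were left out. A probe was kept if at least 1 label group had it well above background on its 2 arrays (32218 probes), and the brightest stood for its gene (21264 genes). limma 3.58.1 in R 4.3.3 was fitted to all 8 arrays with injected, IRI and sham means. A fit with 4 group means gave the differences of each small RNA. The number of arrays limits the precision. The script was tested on simulated data. Probe coordinates are mm9, per the file headers. Of 56605 probes 33767 were named by accession through RefSeq, 9866 by current and 310 by older symbol, and 12662 kept the file's name. Named genes were the 10 of smallest p in each direction, up to 4 of smallest p in each of 48 lists, and a fixed set; not all of them are described. Members and lists were chosen with earlier results of these data known. Alternatives changed the scaling, background, filter, arrays, design, covariate, weights and probe rule.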

Additional observations from a re-analysis of the deposited data

Results flagged for a closer look

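In 4 of the 72 named genes checked 1 injected array stood apart from the other 3, by a gap over the group's range above Dixon's critical value for 4 samples. That value marks about 1 in 20 unselected groups. These genes were selected and share the same 4 arrays, so that rate gives no expected count for them. For Tmem119 the ratio was 0.833, with mimic kidney 7 low at -0.23 against 0.27 to 0.37. For Hoxa11 it was 0.907, with mimic kidney 7 high at -0.77 against -1.01 to -0.98. For Il1f6 it was 0.91, with control-miRNA kidney 5 high at 0.32 against -1.21 to -1.07. For Junb it was 0.879, with mimic kidney 7 low at 3.36 against 3.97 to 4.05. In all 4 genes the outlying array still lay on the same side of both IRI arrays as the rest.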

How the results depend on the processing

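The count of genes higher in injected kidneys was 13 with array weights (limma adjusted p of 0.0165 for Smoc2) and 0 in every other setting tried; the count lower was 0 in all of them. The 10 named genes that lay higher by smallest p were among those 13. The mimic against IRI count was 10343 with normexp and 11947 with no filter on dim probes. It was 0 with the 6 injured arrays only, array brightness, slide column or array weights. Leaving out 1 array gave 0 to 7545. Control miRNA against IRI had 1 gene with probes well above background on all 8 arrays and 3 with array weights. Mimic against control miRNA had 5833 with normexp, 1495 with probes well above background on all arrays, 1 with slide column, and 0 to 6318 on leaving out an array (6318 without mimic kidney 6). The cause of these moves was not tested.

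The share of genes above and below both IRI arrays was 13% and 8.1% with normexp, 7.67% and 9.01% with quantile normalization, 7.2% and 11.8% with median centring and 7.64% and 9% in the deposited ratios. With no filter it was 29.2% and 5.11%, and the median of all genes was 0.30. The matrix list kept 19 to 22 genes above and 0 below in the settings other than leaving out an array. On leaving one out 21 to 25 lay above. The medians were 0.80 to 1.20 and 1.05 to 1.30. The counts compare array values and not the fit, so design, covariate, weights or leaving out sham arrays could not move them. Leaving out an injected or IRI array can only keep or raise them. The share of all genes above then ran from 11.4% (without mimic kidney 7) to 26.7% (without IRI kidney 30).

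Signs turned for 13 of 72 named genes. With array brightness in the fit these were Itgam (-0.0536), Isg15 (-0.5565), Cdh5 (-0.4363), Pecam1 (-0.155), Havcr1 (0.1857), Lcn2 (0.4011), Krt20 (0.5133), Spp1 (-0.032) and Arntl (-0.809). With normexp they were Lrrc3 (0.3039), Il6 (0.2569) and Spp1 (-0.0191), and with array weights Isg15 (-0.1177). Spp1 was -0.3454 with quantile normalization, -0.0418 with median centring and -0.3434 in the deposited ratios. With all probes averaged Slc34a1 was -0.1078 and Lrp2 0.0628. On leaving out 1 array the ranges that crossed 0 were -0.8254 to 0.2633 for Il6, -0.5361 to 0.1021 for Lcn2, -0.6061 to 0.0569 for Krt20, -0.0856 to 0.1939 for Spp1 and -0.0174 to 0.4715 for Slc34a1. None of these genes passed the threshold in any setting. No paired analysis was possible because each sample was the left kidney of a different mouse.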
